A study of Mus musculus with 10 samples.

Results

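The genes described here are the expressed numbered Zfp genes of the mouse, that is, the genes whose symbol is Zfp followed by digits alone. Of 252 such rows in the expression table, 92 did not reach an FPKM (a fragment count scaled to transcript length and to the size of the library) of 1 in at least 2 of the 10 libraries. Zfp352 and Zfp57 were left out by the definition of the set, so 158 genes remained, of 8726 genes of any name that passed the same threshold and 21437 rows in all. The genes were therefore selected on their level, and a gene that passed through a single group of libraries had to be lower elsewhere. The 3 genes just inside the threshold, by their second highest library, were Zfp384 (1.05 FPKM), Zfp871 (1.06) and Zfp329 (1.11), and the 3 just outside were Zfp704 (0.973), Zfp125 (0.958) and Zfp446 (0.903).

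Bulk RNA-seq libraries were made from oocytes arrested in metaphase II and from embryos at the 2-cell and 4-cell stages, which per the study's methods were collected 16, 40 and 55 h after hCG, with 2 libraries in each of 5 groups. Wild-type controls were present for each stage, and Ago2 knockdown (Ago2 kd) embryos at the 2-cell and 4-cell stages. In the study, the knockdown was made in the zygote by injecting siRNAs against Ago2 together with an antibody to the AGO2 protein, so it is a transient depletion of RNA and protein and not a deletion. A scrambled siRNA is described in the methods as the negative control, and the labels say only control. The labels give the strain as ICR for every library, whereas the study's methods describe ICR oocyte donors and F1 crosses for the embryos, all from 7-week-old females. Stage and cross therefore cannot be told apart in the comparisons with oocytes. How many oocytes or embryos went into a library, and whether the 2 libraries of a group came from separate collections, is not given in the sources used here, and the p-values measure only the spread between these libraries. Ago2 itself was not analysed here.

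C2H2 zinc-finger proteins bind DNA, and some bind RNA, through tandem fingers that each contact a few bases. In mammals the largest class of them carries a KRAB domain, which recruits KAP1 (encoded by Trim28) and, through it, the histone methyltransferase SETDB1, HP1 proteins and histone deacetylases to silence transposable elements and imprinted loci. The genes lie in clusters that grew by duplication. Members without a KRAB domain include activators, corepressor subunits and proteins of RNA and ribosome metabolism. In early embryos, mRNAs inherited from the oocyte are removed while the embryonic genome is switched on, and the comparisons below follow the Zfp transcripts through that period and ask which differ when AGO2 is depleted.

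Proteins translated from the annotated coding sequences were available for 154 of the 158 genes, and the other 4 (Zfp572, Zfp640, Zfp783 and Zfp939) are annotated as pseudogenes. A KRAB motif was found in 84 proteins and not in 70. Among the tested genes of any name with a coding sequence, 113 of 6527 carried it. The proteins held a median of 11 C2H2 fingers, 12 in the KRAB class and 7 in the other, with a maximum of 30 in Zfp236. The pattern found no C2H2 finger in Zfp36, whose fingers are of the CCCH type, nor in Zfp703, Zfp750, Zfp935 and Zfp957. In the genome, 38 genes were on chromosome 7 and 23 on chromosome 17. Another numbered Zfp gene was within 100 kb for 64 of the 84 KRAB genes and for 21 of the 70 without KRAB. In 18 genes more than 20% of 50-base transcript windows, read on either strand, occurred in a transcript of another gene too. Their levels are uncertain because reads could be split between genes. The other gene can be a copy elsewhere or one annotated over the same locus, and these were not told apart. The 18 include Zfp708 (100% of windows), Zfp90 (92.2%), Zfp593 (68.2%), Zfp58 (49.8%) and Zfp932 (44.7%). All of these but Zfp932 overlap another gene at their own locus. A gene on the opposite strand overlapped 38 of the genes and one on the same strand 12, and whether reads were assigned by strand is not stated.

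Across the libraries, the 6 oocyte markers (such as Zp3 and Gdf9) summed to between 8111 and 10013 FPKM in oocytes and to between 5.87 and 10.8 in 4-cell controls. The 2-cell markers found in the table (4 of 5, such as Zfp352) summed to between 534 and 606 in 2-cell controls and to at most 33.9 in the other control groups. Zscan4d among them was at 51.3 FPKM in 2-cell control replicate 1 and listed at 0 in every other library. Of 7 cumulus and granulosa markers only Foxl2 had a row, and it was at 0 in all libraries; the 3 blood markers summed to at most 7.04. Replicates differed more than the sums show. In 4-cell Ago2 kd replicate 1, 13.7% of tested genes above 10 FPKM in its partner were under 0.1, against 1.22% to 5.20% in the other 9 libraries. Read depth cannot be recovered from the table, in which low FPKM values form no steps of whole reads, and Setdb1, which every cell uses, was at 0 in 8 of the 10 libraries. A value of 0 is therefore given as listed at 0, without a claim of absence. In bulk samples fewer cells of a kind and less RNA per cell cannot be told apart.

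In any library, 70 to 95 of the 158 genes were at 1 FPKM or more and 42 to 62 were listed at 0. The median level per library ran from 0.442 to 2.07 FPKM. The genes contributed 0.415% to 1.11% of the summed FPKM of a library, with 0.566% and 0.415% in the oocytes, the highest shares in the 4-cell controls (0.945% and 1.11%) and 0.780% and 0.496% in 4-cell Ago2 kd. A few transcripts made up much of that share, since the 5 highest genes held 35.2% and 40.5% of the set's FPKM in oocytes and 51.7% and 72.8% in 4-cell controls. The correlation of log2(FPKM + 1) between the 2 libraries of a group, across the 158 genes, was 0.891 in oocytes and 0.665 to 0.752 in the 4 embryo groups. Genes are not independent replicates, so these are descriptions.

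**Figure D1:**
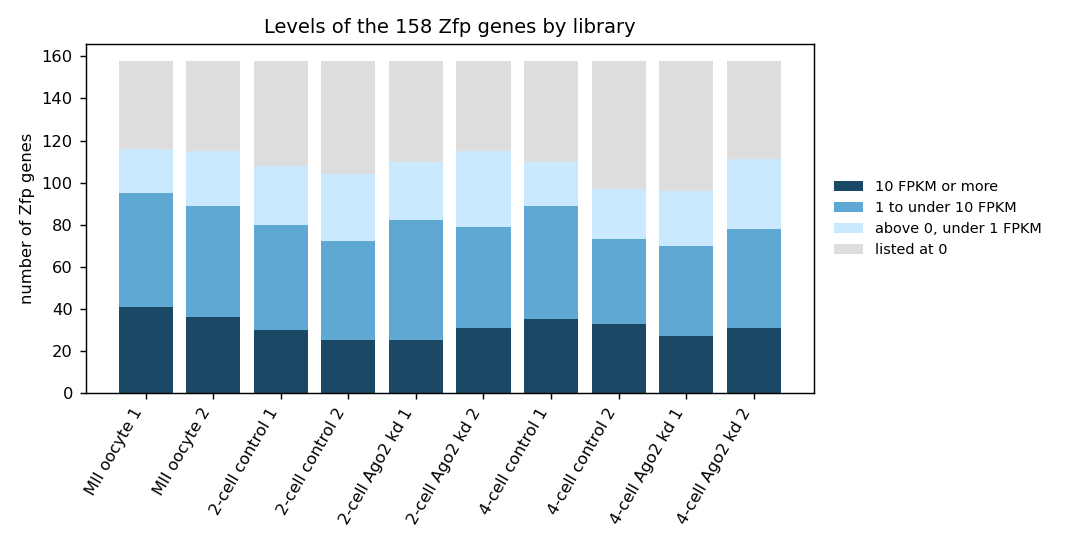
Number of the 158 Zfp genes in each level class, for each of the 10 libraries; the bar segments are classes of FPKM. Between 70 and 95 genes reached 1 FPKM, and between 42 and 62 were listed at 0.

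The highest transcript changed with the stage. In oocytes it was Zfp957, at 269 and 328 FPKM, followed by Zfp655, an interactor of the VAV1 signalling protein, and Zfp706, which embryonic stem cells need to leave self-renewal. In 2-cell controls Zfp655 had the highest mean, at 231 and 198 FPKM, with Zfp296 above it in replicate 2 (232). In 4-cell controls the lead passed to Zfp296, a partner of the pluripotency network, at 557 and 894 FPKM, followed by Zfp622, a maturation factor of the large ribosomal subunit, and Zfp707. Only 17 of the 158 genes were at 1 FPKM or more in all 10 libraries, among them Zfp207, Zfp296, Zfp36, Zfp445, Zfp638, Zfp655 and Zfp706. By mean log2 level over the controls, 66 genes were highest in oocytes, 26 in 2-cell and 66 in 4-cell embryos.

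**Figure D2:**
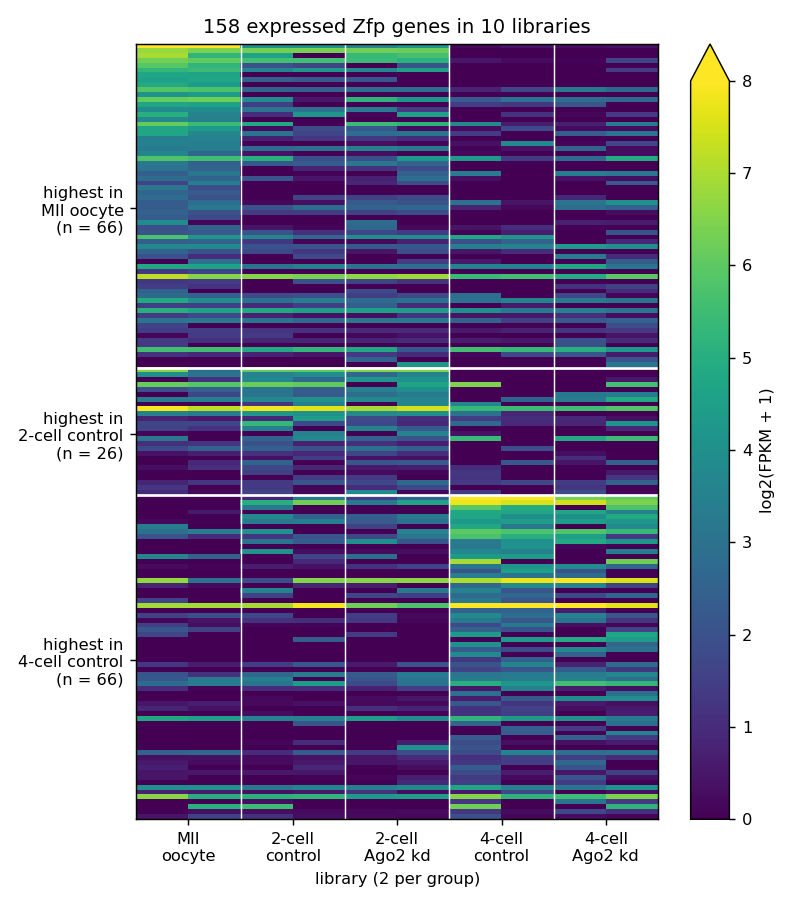
Levels of the 158 genes (rows) in the 10 libraries (columns), as log2(FPKM + 1); values above 8 share the top colour. Rows are ordered by the control group with the highest mean (66 in oocytes, 26 at 2-cell, 66 at 4-cell) and then by the range between control means, so the blocks follow from the ordering.

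With the study's definition of a maternal mRNA, a mean above 2 FPKM in oocytes, 79 of the 158 genes (50%) were maternal, beside 4674 of the 8726 tested genes (53.6%). Of these 79, 20 (25.3%) had lost more than 1 log2 unit by the 2-cell stage and were then level, the pattern called cluster I, beside 20.3% of all maternal genes. A loss confined to the second step (cluster II) was found in 15 (19.0%, beside 19.4%), and a loss at both steps (cluster III) in 12 (15.2%, beside 14.8%). The shares were close to those of all genes in each pattern, and no test was made. Cluster I held Zfp58, Zfp277, Zfp449 and Zfp944, cluster II Zfp68, Zfp616, Zfp655 and Zfp946, and cluster III Zfp957 and Zfp560. KRAB genes made up 9 of the 20 in cluster I, 11 of the 15 in cluster II and 9 of the 12 in cluster III. Of all 79 maternal members 46 were KRAB genes, and the difference was not tested.

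Between the oocyte and the 2-cell control, 20 of the 158 genes (12.7%) were lower at an adjusted p below 0.05, beside 14.2% of all tested genes, and 5 (3.16%) were higher, beside 6.54%. Tests were made with limma on log2(FPKM + 1), and adjusted p-values were corrected over all 8726 genes. The median difference was -0.25 for the set and -0.06 for all genes. Of the 20 lower genes, 9 reached 1 FPKM in the oocyte libraries alone, so their selection already fixed the direction. With other scalings the counts became 7 higher and 16 lower (median scaling) or 6 and 17 (quantile normalisation). Median scaling multiplied the oocyte values by 0.828 and 0.743 and the 2-cell control values by 1.295 and 1.14. The differences named below for this step are without scaling.

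Among the falls, Zfp58, a KRAB protein, was at 25.3 and 24.3 FPKM in oocytes and listed at 0 in all 8 embryo libraries (log2 difference -4.69, SE 0.23, adjusted p = 9.2e-05). Zfp944, also a KRAB protein, went from 27.5 and 19.97 FPKM to 0 in the same libraries (-4.61, SE 0.26, adjusted p = 0.000107), and Zfp449, a SCAN protein, from 16.5 and 19.9 to 0 (-4.26, SE 0.23, adjusted p = 0.000103). These 3 are among the 9 genes selected through the oocyte libraries alone, so their values are a description. The most abundant of the falling genes was Zfp957, at 269 and 328 FPKM in oocytes and at 16.2 and 15.7 in 2-cell controls (-4.14, SE 0.35, adjusted p = 0.000513). Zfp3 fell from 25.3 and 23.6 FPKM to 1.78 and 0, and Zfp664 from 67.7 and 73.9 to 13.8 and 0.421; their adjusted p-values were 0.0121 and 0.0337. The Zfp664 call was lost without any one of 9 of the 10 libraries, with adjusted p-values up to 0.147, and that of Zfp3 without either oocyte library or without 2-cell control replicate 2 (up to 0.0722).

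The 5 genes that rose at the 2-cell stage were Zfp707, Zfp775, Zfp637, Zfp263 and Zfp933. Zfp707, a KRAB protein, was at 0 and 0.04 FPKM in oocytes and at 31.4 and 75.3 in 2-cell controls (log2 difference 5.61, SE 0.61, adjusted p = 0.00133). Zfp775 went from 0.13 and 0.04 FPKM to 8.91 and 9.98 (3.26, SE 0.38, adjusted p = 0.00167). These 2 calls held without each of the 10 libraries in turn. Zfp637 was listed at 0 in oocytes and at 12.6 and 4.78 FPKM in 2-cell controls (adjusted p = 0.0114), Zfp263, a SCAN protein, at 0 and then 7.33 and 4.05 (adjusted p = 0.0337), and Zfp933 at 0 and 1.24 and then 12.3 and 5.38 (adjusted p = 0.0151). These calls rested on single libraries. Without oocyte replicate 1 or 2-cell control replicate 1, none of the 3 kept its call, Zfp637 and Zfp263 lost theirs without oocyte replicate 2 as well, and Zfp263 also without 2-cell control replicate 2 or either 4-cell control; the highest adjusted p-values were 0.0644, 0.141 and 0.0877.

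From the 2-cell to the 4-cell control, 24 of the 158 genes (15.2%) were higher, beside 21.1% of all tested genes, and 20 (12.7%) were lower, beside 17.5%. The median of all genes moved up by 0.24 log2 units at this step, and by 0.07 and 0.02 after median scaling and quantile normalisation. Differences at this step are therefore given below relative to the median of 0.24. Wherever a value is relative to all genes, its SE and adjusted p are those of the difference before the median was taken off. The relative value itself was not tested. With those scalings the split of the set turned from 24 higher and 20 lower to 20 and 24, and to 16 and 20. All 44 called genes had non-overlapping libraries. With 2 libraries a group this adds no support, since an exact permutation test then reaches only p = 0.333. The share of such genes among all tested genes is not given here. Of the 24 higher genes, 5 (Zfp12, Zfp568, Zfp626, Zfp777 and Zfp783) reached 1 FPKM in the 4-cell controls alone, so their selection fixed the direction. Zfp7, Zfp251, Zfp408, Zfp558, Zfp710 and Zfp746 reached it in both 4-cell controls and 1 other library. They too passed the threshold only through those controls, so their rise is a description. The median gap between the 2 libraries of a group, over the 158 genes, was 0.579 log2 units in 4-cell controls and 0.321 in 2-cell controls.

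The largest fall was that of Zfp68, a KRAB protein, which held 77.1 and 81.1 FPKM in 2-cell controls after 107 and 84.6 in oocytes and had 0.01 in both 4-cell controls (log2 difference -6.55 relative to all genes, SE 0.31, adjusted p = 5.4e-05). Zfp750, a regulator of epidermal differentiation, went from 66.8 and 62.0 FPKM to 0 and 0 (-6.27, SE 1.04, adjusted p = 0.00451), although its oocyte values of 91.9 and 6.27 did not match each other. Zfp616 fell from 48.1 and 47.0 FPKM to 0.39 and 0.18 (-5.48, SE 0.54, adjusted p = 0.000562). Zfp560 and Zfp946 were listed at 0 in both 4-cell controls after 10.6 and 18.3 FPKM and after 10.7 and 14.2 at the 2-cell stage. Zfp957 continued down, to 0.15 and 0.38 FPKM (-3.99, SE 0.35, adjusted p = 0.000401), so that it fell at both steps. Zfp655 fell more moderately, to 39.8 and 43.8 FPKM (-2.57, SE 0.34, adjusted p = 0.00218). For all of these genes, Zfp655 included, the call held without each of the 10 libraries in turn.

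The largest rise was that of Zfp622, from 0.812 and 8.44 FPKM in 2-cell controls to 281 and 599 in 4-cell controls, after 0 in both oocyte libraries (log2 difference 6.40 relative to all genes, SE 0.82, adjusted p = 0.00117). Zfp593, the mouse counterpart of a yeast ribosome export factor, was listed at 0 in both 2-cell controls and at 27.1 and 25.2 FPKM at the 4-cell stage (4.52, SE 0.47, adjusted p = 0.000482). Its reads may be shared with another gene (68.2% of windows). Zfp777, a KRAB protein, was at 0 in oocytes and 2-cell controls and at 8.16 and 16.3 FPKM in 4-cell controls (3.41, SE 0.32, adjusted p = 0.000301), a rise fixed by its selection. These 3 calls held without each of the 10 libraries. Zfp800 (1.36 and 3.43 FPKM, then 51.2 and 32.0), Zfp574 (0 and 2.17, then 19.6 and 20.2) and Zfp710 (0 and 0, then 3.21 and 22.0) passed with adjusted p-values of 0.0342, 0.0304 and 0.0260, and each lost its call without any one of at least 5 libraries, 2-cell control replicate 1 and both oocyte libraries among them (adjusted p up to 0.151). Zfp707 rose again, to 222 and 183 FPKM (1.79, SE 0.61, adjusted p = 0.0380), a call lost with either scaling and without either oocyte library, 2-cell control replicate 1 or either 4-cell control (adjusted p up to 0.184).

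**Figure D3:**
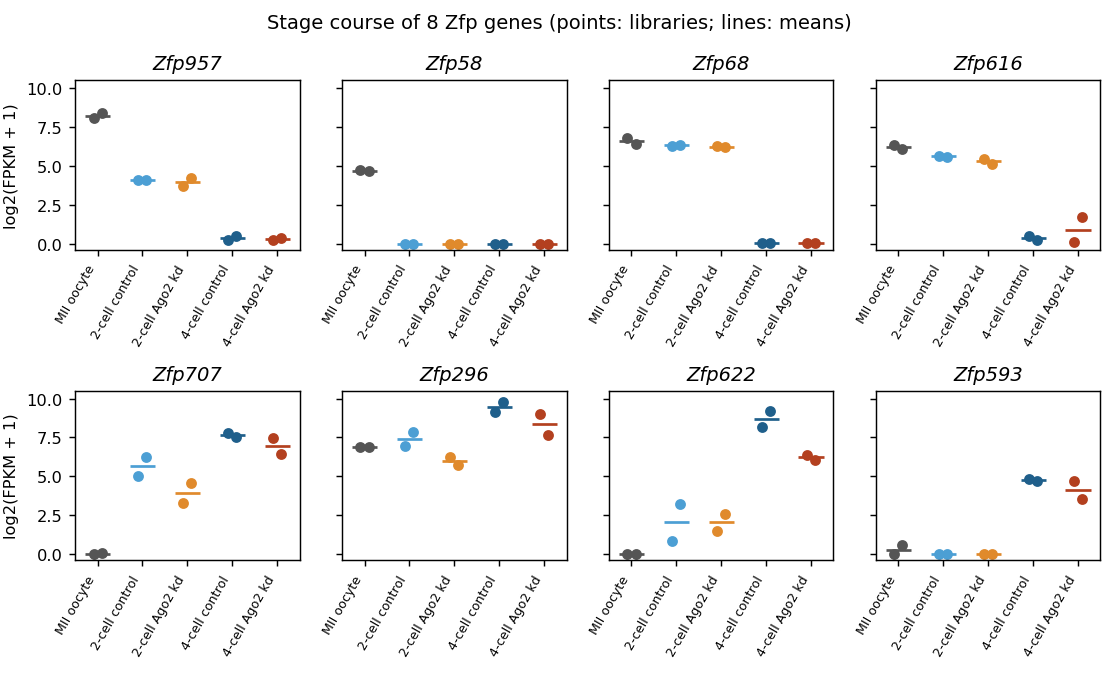
Levels of 8 Zfp genes in the 5 groups, as log2(FPKM + 1); points are libraries and lines are means of 2. Zfp957 and Zfp58 fell by the 2-cell stage, Zfp68 and Zfp616 by the 4-cell stage, and Zfp707, Zfp296, Zfp622 and Zfp593 had their highest control values at the 4-cell stage.

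The calls at this step were also counted by protein class. The class without KRAB had no match to the motifs and may still hold KRAB proteins. Of the 84 KRAB genes, 9 (10.7%) were higher and 15 (17.9%) lower in 4-cell than in 2-cell controls, and of the 70 genes without KRAB, 14 (20%) were higher and 5 (7.14%) lower. Among all tested genes 21.1% were higher and 17.5% lower, so the lower share of the KRAB class and the higher share of the other were near the background, and the remaining 2 shares were below it. The median difference was 0.00 for the KRAB class and 0.80 for the other, beside 0.24 for all tested genes. The order of the classes was the same after median scaling (7 higher and 18 lower; 12 higher and 6 lower) and quantile normalisation (7 and 15; 8 and 5). With the first KRAB motif alone, which 64 proteins carry, 7 were higher and 11 lower. At the previous step 2 KRAB genes were higher and 11 lower, and 3 genes without KRAB were higher and 9 lower. Over both steps together, 26 KRAB genes were lower in 4-cell controls than in oocytes and 9 were higher, against 14 lower and 15 higher in the class without KRAB. For the whole set the oocyte-to-4-cell comparison gave 40 lower genes (25.3%, beside 26.3% of all tested genes) and 25 higher (15.8%, beside 22.0%). The difference between the classes was not tested at any step, and neither was that in the promoters below.

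**Figure D4:**
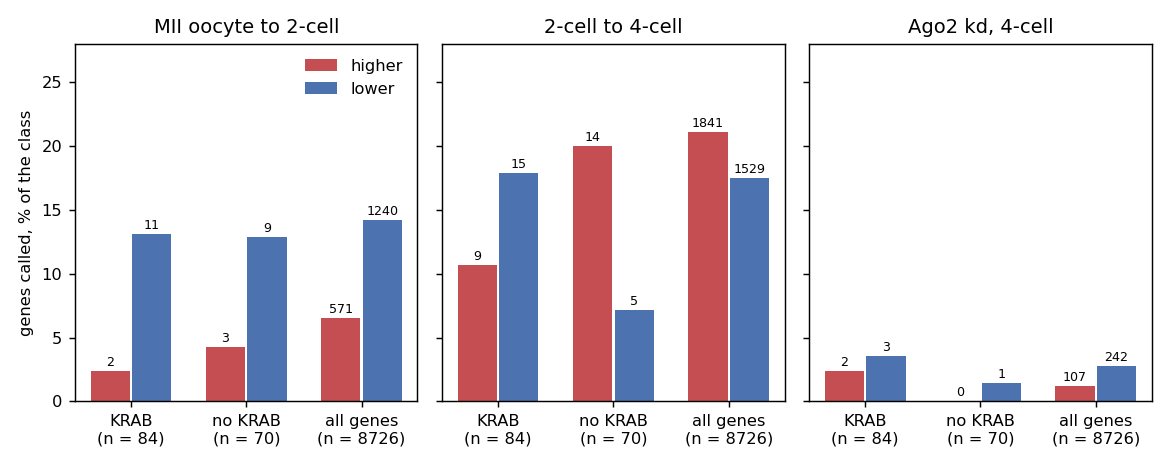
Percentage of genes called higher or lower at an adjusted p below 0.05, in 3 comparisons. The classes are Zfp genes with a KRAB motif match (n = 84), Zfp genes without one (n = 70) and all tested genes (n = 8726). The number over each bar is the number of genes. From the 2-cell to the 4-cell control, 15 KRAB genes were lower and 9 higher, against 5 and 14 in the class without KRAB; both scalings gave the same order.

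The proximal promoters of the classes also differed in composition. In the 250 bases before the RefSeq start, 89 promoters of 73 KRAB genes had a median GC content of 52.8% and 9.0 CpG, and 76 promoters of 56 genes without KRAB had 61.8% and 15.5. Promoters of all tested genes were at 59.6% and 16. The GC box GGGCGG, searched on both strands, was in 31.5% of KRAB promoters, 63.2% of the others, 56.3% of the promoters of tested genes and 32.7% of all 32851 promoters. Of the 21 promoters of genes that rose from the 2-cell to the 4-cell stage 76.2% held it, and of the 20 of genes that fell 30.0%. The CCAAT box was in 23.8% and 35.0% of these, beside 37.1% for tested genes, and the ETS-type motif CCGGAAG in 14.3% and 25%, beside 16%. A match to such short letters is a description of the window and not a bound site.

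To show these windows, the last 150 bases before the start are given for the largest rise and fall of the second step, for the highest transcripts of 4-cell embryos and oocytes, and for 3 neighbouring genes of chromosome 6 described with the knockdown. They are from the RefSeq promoter table of build GRCm38.p6, on the strand of the gene, with GGGCGG and CCAAT on either strand in capitals.
Zfp622, chr15:25984216-25984365, plus strand: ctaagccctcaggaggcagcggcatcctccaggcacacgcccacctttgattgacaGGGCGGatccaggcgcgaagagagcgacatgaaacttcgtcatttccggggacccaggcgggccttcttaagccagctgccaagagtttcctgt
Zfp296, chr7:19577137-19577286, plus strand: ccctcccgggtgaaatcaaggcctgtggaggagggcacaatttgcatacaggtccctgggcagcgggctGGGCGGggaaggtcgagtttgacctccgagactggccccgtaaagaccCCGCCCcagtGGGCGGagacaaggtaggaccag
Zfp68, chr5:138619744-138619893, minus strand: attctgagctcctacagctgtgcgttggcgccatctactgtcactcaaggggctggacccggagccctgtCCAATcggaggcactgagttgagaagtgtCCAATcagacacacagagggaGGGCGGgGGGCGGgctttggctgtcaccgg
Zfp957, chr14:79247368-79247517, minus strand: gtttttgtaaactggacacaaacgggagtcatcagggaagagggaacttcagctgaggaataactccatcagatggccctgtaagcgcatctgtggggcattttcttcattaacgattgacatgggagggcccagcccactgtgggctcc
Zfp777, chr6:48047795-48047944, minus strand: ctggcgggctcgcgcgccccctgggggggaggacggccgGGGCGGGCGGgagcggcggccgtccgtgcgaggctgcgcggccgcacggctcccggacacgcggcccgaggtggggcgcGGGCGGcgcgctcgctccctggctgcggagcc
Zfp746, chr6:48086594-48086743, minus strand: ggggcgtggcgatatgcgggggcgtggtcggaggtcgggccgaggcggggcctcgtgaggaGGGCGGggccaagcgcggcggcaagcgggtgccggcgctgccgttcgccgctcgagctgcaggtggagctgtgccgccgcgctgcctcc
Zfp783, chr6:47943025-47943174, plus strand: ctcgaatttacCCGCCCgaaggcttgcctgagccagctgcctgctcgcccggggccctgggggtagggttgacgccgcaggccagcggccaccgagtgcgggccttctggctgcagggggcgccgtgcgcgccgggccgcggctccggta
The rising Zfp296 held 3 GC boxes in this stretch and Zfp622 held 1, Zfp68 had 2 GC boxes and 2 CCAAT boxes, and Zfp957, with 45.2% GC over the 250 bases, had neither. The 3 chromosome 6 genes had the most GC (84% for Zfp777, 74.0% for Zfp746 and 66.8% for Zfp783).

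At the 2-cell stage, none of the 158 genes passed the adjusted threshold between Ago2 kd and control embryos with limma, where 0.332% of all tested genes were higher and 0.218% lower. Without adjustment, at p below 0.05, 6 of the 158 passed, beside 5.96% of all tested genes in either direction, with 4 higher and 2 lower. The lower genes were Zfp707, at 31.4 and 75.3 FPKM in controls and 8.99 and 23.3 in Ago2 kd (log2 difference -1.67, SE 0.61, adjusted p = 0.692), and Zfp296, at 121 and 232 against 73.9 and 51.7 (-1.42, SE 0.53, adjusted p = 0.713). The higher ones were Zfp664, Zfp580, Zfp111 and Zfp408, with adjusted p-values of 0.811, 0.648, 0.813 and 0.456. Zfp664 was at 13.8 and 0.421 FPKM in controls and at 35.5 and 17.4 in Ago2 kd, and Zfp111 at 7.61 and 4.11 against 10.45 and 14.8. In these 6 genes the libraries of the 2 groups did not overlap. With 2 libraries a group this adds no support, and the share of such genes among all tested genes is not given here. The 4 markers of the 2-cell embryo summed to between 253 and 405 FPKM in 2-cell Ago2 kd, against 534 to 606 in controls. One of them, Tcstv3, was listed at exactly the same value in both Ago2 kd libraries (134.1044373 FPKM). The same held for the members Zfp148 (0.985427443) and Zfp873 (6.225707404), so their spread in that group is 0. The origin of these equal values is not known. The 1 marker at 0 in both Ago2 kd libraries was Zscan4d, which was also at 0 in control replicate 2. The oocyte markers summed to between 1098 and 1275 FPKM against 1297 to 1645, with none at 0 in both libraries of a group. The part of the markers in these differences was not tested. Without 2-cell control replicate 1, 13 genes passed without adjustment and 1 with it, and without 2-cell Ago2 kd replicate 2 there were 11.

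At the 4-cell stage, 5 of the 158 genes (3.16%) were lower in Ago2 kd than in control embryos at an adjusted p below 0.05, beside 2.77% of all tested genes, and 2 (1.27%) were higher, beside 1.23%. At an unadjusted p below 0.05, 16 were lower (10.1%, beside 8.07%) and 11 higher (6.96%, beside 7.37%). The lower genes were Zfp513, Zfp777, Zfp783, Zfp12 and Zfp7, and the higher ones Zfp677 and Zfp81. With limma fitted to the 4 libraries of this stage alone, 0 genes of the set passed and 16 did without adjustment, so each call rests on the spread estimated from all 5 groups. Without 4-cell Ago2 kd replicate 1, the library with most missing values, 6 calls were made, and without either 2-cell control 4. Sums of stage markers differed between these groups too. The 6 oocyte markers summed to between 23.9 and 41.2 FPKM in 4-cell Ago2 kd against 5.87 to 10.8 in controls, with 2 and 3 of them at 0 in both libraries of the group, and the 4 markers of the 2-cell embryo to between 22.0 and 27.3 against 1.62 to 6.76, with 1 and 2 at 0. Among the oocyte markers, only Mos and Oosp1 were higher in both Ago2 kd libraries than in both controls. Zp3 was at 23.5 FPKM in Ago2 kd replicate 1 and at 0 in replicate 2, and Gdf9 overlapped between the groups. The part of the markers in the differences was not tested.

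Zfp513, known as a regulator of photoreceptor genes, was at 24.9 and 17.8 FPKM in 4-cell controls and listed at 0 in both Ago2 kd libraries (log2 difference -4.46, SE 0.60, adjusted p = 0.00892). It was at 5.27 to 14.4 FPKM in all 4 libraries of the 2-cell stage and overlaps Snx17 on the opposite strand. Zfp777 was at 8.16 and 16.3 FPKM against 0.11 and 0 (-3.58, SE 0.32, adjusted p = 0.00146), and the pseudogene Zfp783 at 4.53 and 4.75 against 0.56 and 0 (-2.17, SE 0.25, adjusted p = 0.00459). These 3 calls held without each of the 10 libraries in turn. Zfp777 and Zfp783, with Zfp12, reached 1 FPKM in the 4-cell controls alone, so that their selection fixed this direction. Zfp7 otherwise reached it in oocyte replicate 1 only (2.05 FPKM), so it too passed the threshold through these controls. The KRAB proteins Zfp12 (1.47 and 4.57 FPKM against 0 and 0, adjusted p = 0.0350) and Zfp7 (8.18 and 3.55 against 0 and 0, adjusted p = 0.0475) each lost their call without any one of 8 of the 10 libraries, with adjusted p-values up to 0.0848 and 0.143.

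Zfp677, a KRAB protein, was higher in Ago2 kd, at 8.37 and 9.25 FPKM, and listed at 0 in both 4-cell controls (3.29, SE 0.61, adjusted p = 0.0334). Its values at the 2-cell stage were 7.43 and 3.72 FPKM in controls and 6.34 and 8.53 in Ago2 kd. The call was lost without any one of 8 libraries (adjusted p up to 0.113). Zfp81, also KRAB, was at 1.27 and 1.97 FPKM in Ago2 kd, at 0 in controls, and at 1.80 and 1.23 in oocytes (1.38, SE 0.22, adjusted p = 0.0202), and lost its call without either 4-cell control (adjusted p up to 0.0562). The largest higher values with non-overlapping libraries that passed p below 0.05 without adjustment, but not with it, were those of Zfp932 (0 and 5.01 FPKM in controls, 9.23 and 28.6 in Ago2 kd, adjusted p = 0.169), Zfp239 (0.55 and 3.81 against 13.8 and 14.4, adjusted p = 0.0529) and Zfp141 (0.73 and 0.12 against 6.28 and 4.73, adjusted p = 0.0654).

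The difference between the stages was tested as an interaction, the Ago2 kd difference at the 4-cell stage less that at the 2-cell stage. In 3 genes it was negative at an adjusted p below 0.05 (1.90%, beside 1.64% of all tested genes) and in none positive (beside 0.642%). Without adjustment, 11 were negative (6.96%, beside 7.11%) and 8 positive (5.06%, beside 6.27%) at the same threshold. The 3 genes were Zfp513 (-5.25, SE 0.85, adjusted p = 0.0288), Zfp777 (-3.62, SE 0.46, adjusted p = 0.0103) and Zfp783 (-2.17, SE 0.35, adjusted p = 0.0296). The 2-cell libraries held Zfp513 in both groups, whereas Zfp777 was there at no more than 0.04 FPKM and Zfp783 at 0 in all of them, so for the latter pair, selected through the 4-cell controls alone, the interaction nearly equals the 4-cell difference and its direction was fixed. Without 2-cell control replicate 2 or 2-cell Ago2 kd replicate 1 a single call remained, and without 4-cell control replicate 2 there were 6. The call for Zfp777 held without each library in turn. That for Zfp513 was lost without any one of 6 libraries (adjusted p up to 0.0859) and that for Zfp783 without any one of the 4 libraries of the 2-cell stage (up to 0.0894).

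**Figure D5:**
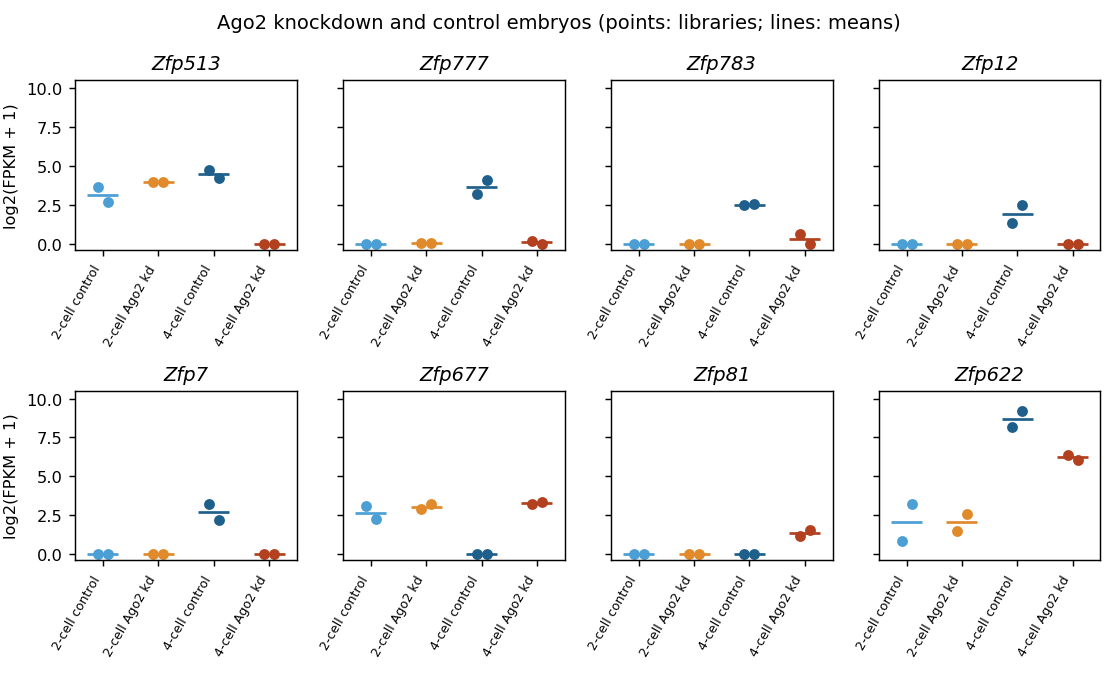
Levels of the 7 genes called between Ago2 kd and control 4-cell embryos, and of Zfp622, in the 4 embryo groups, as log2(FPKM + 1); points are libraries and lines are means of 2. Zfp513, Zfp12 and Zfp7 were listed at 0 in both 4-cell Ago2 kd libraries, Zfp677 and Zfp81 in both 4-cell controls; Zfp622 had no adjusted call.

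The comparison of Ago2 kd with control and the 2-cell to 4-cell comparison share the 4-cell control libraries, so values of genes that rose in controls are set side by side without a test. Zfp622 was at 281 and 599 FPKM in controls and 83.6 and 66.4 in Ago2 kd, all above the 2-cell values (log2 difference -2.45, SE 0.82, adjusted p = 0.206). Zfp574 was listed at 0 in both Ago2 kd libraries, against 19.6 and 20.2 FPKM in controls, with an adjusted p of 0.0709. Zfp593, by contrast, stood at 25.1 and 10.45 FPKM in Ago2 kd against 27.1 and 25.2 (-0.65, SE 0.47, adjusted p = 0.608). Zfp296 was at 521 and 204 against 557 and 894 FPKM (adjusted p = 0.394).

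Zfp777, Zfp746, Zfp783, Zfp956 and Zfp398 lie within 251 kb of chromosome 6 (47835661 to 48086593, GRCm38) and are the members within 250 kb of Zfp777, a stretch looked at after the values were seen. Zfp746, known as PARIS, a substrate of the ubiquitin ligase parkin, was at 2.42 and 8.19 FPKM in 4-cell controls and at 0.25 and 0.07 in Ago2 kd (-2.28, SE 0.55, adjusted p = 0.0854). Zfp777 and Zfp783 were low in the same 2 libraries (above). Zfp398 and Zfp956 were oocyte transcripts, at 11.4 and 5.32 and at 5.998 and 2.93 FPKM there, with at most 0.19 and 0.89 FPKM in any 4-cell library. Zfp783 and Zfp956 overlap on the same strand. Zfp746 also passed the threshold only through the 4-cell controls, as elsewhere it reached 1 FPKM in oocyte replicate 1 only (1.89 FPKM). Zfp777 and Zfp783 were selected through the 4-cell controls alone and the stretch was picked around Zfp777, so nothing is read from their sharing it.

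Of 6 genes listed as silencers of retroelements or imprinted genes, 4 were members (Zfp445, Zfp568, Zfp708 and Zfp932), Zfp819 was above 1 FPKM in a single library only, and Zfp809 was not analysed here. Zfp568, which silences the placental promoter of Igf2, rose from 0.14 and 0.28 FPKM in 2-cell to 3.48 and 1.31 in 4-cell controls (1.17 relative to all genes, SE 0.33, adjusted p = 0.0151) and lost this call without 2-cell control replicate 1. In 4-cell Ago2 kd it was at 0.47 and 0.25 FPKM (adjusted p = 0.112). It reached 1 FPKM in the 4-cell controls alone, which fixed both directions. Zfp445, which with ZFP57 maintains imprints, was expressed in all 10 libraries, at 37.2 and 19.3 FPKM in 4-cell controls and 15.3 and 8.98 in Ago2 kd (adjusted p = 0.315). Zfp708 ranged from 0 to 9.69 FPKM with no adjusted call, and its reads cannot be told from those of another gene.

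Of 10 genes listed for pluripotency and development, 6 were members. Zfp296 rose from 121 and 232 FPKM in 2-cell to 557 and 894 in 4-cell controls (1.83 relative to all genes, SE 0.53, adjusted p = 0.0209), a call lost with either scaling and without 2-cell control replicate 1 or 4-cell control replicate 2. Zfp703, a corepressor, fell from 7.97 and 2.74 FPKM in oocytes to 0 in all 8 embryo libraries (adjusted p = 0.00455), having been selected through the oocytes alone. Zfp42, which encodes the stem cell marker REX1, reached 4.05 FPKM in 4-cell control replicate 2 and 11.3 in 4-cell Ago2 kd replicate 2 and was listed at 0 in the other 8 libraries. Zfp143, a promoter-bound activator, was at 61.5 and 29.2 FPKM in 4-cell controls and at 0 and 52.9 in Ago2 kd, and Zfp217, a subunit of corepressor complexes, was above 0 in 2-cell Ago2 kd replicate 1 (4.69 FPKM) and 4-cell Ago2 kd replicate 2 (3.20) and listed at 0 elsewhere. Zfp706 went from 145 and 92.1 FPKM in oocytes to 42.2 and 46.4 in 4-cell controls (-1.37, SE 0.41, adjusted p = 0.0291), a call lost with either scaling and without oocyte replicate 1 or either 4-cell control (adjusted p up to 0.147).

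Of 12 genes listed for RNA, ribosome or protein handling, 7 were members, and 3 of them rose from the 2-cell to the 4-cell stage, namely Zfp622, Zfp593 and Zfp36 (21.1% of all tested genes did; 2 of the 7 with quantile normalisation). Zfp36, or tristetraprolin, which binds AU-rich elements and hastens mRNA decay, was at 11.95 and 12.7 FPKM in oocytes, at 3.05 and 3.12 in 2-cell controls and at 9.91 and 11.04 in 4-cell controls. Its fall had an adjusted p of 0.0108 and was lost with either scaling; its rise (1.25 relative to all genes, SE 0.32) had the same adjusted p of 0.0108 and was lost with quantile normalisation. In Ago2 kd it was at 3.79 and 3.57 FPKM and then at 18.9 and 15.3, with no adjusted call. Zfp207, a spindle protein that loads BUB3 on kinetochores, ranged widely between replicates, at 102 and 7.17 FPKM in oocytes and 2.70 and 91.1 in 2-cell controls, so no stage difference was detectable. Zfp91, Zfp638 and Zfp830 had no adjusted call in the 2 stage steps or in either knockdown comparison.

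The corepressor that KRAB proteins recruit was examined through a list of 22 genes, of which 16 passed the threshold of 1 FPKM. Trim28, which encodes KAP1, was at 29.0 and 29.3 FPKM in oocytes, 0.698 and 1.64 in 2-cell controls and 35.8 and 63.6 in 4-cell controls. It thus fell at the first step (-3.83, SE 0.60, adjusted p = 0.00525) and rose at the second (4.29 relative to all genes, SE 0.60, adjusted p = 0.00150). In Ago2 kd it was at 6.82 and 11.998 FPKM in 2-cell embryos (adjusted p = 0.328) and at 7.22 and 2.04 in 4-cell embryos (-3.29, SE 0.60, adjusted p = 0.0316). The 4-cell call was made in 4 of 18 fits, with adjusted p-values up to 0.324, while the difference was negative in all 18. The change between stages (-5.54, SE 0.85, adjusted p = 0.0225) was called in 9 of them. Hdac2, a histone deacetylase, was at 45.5 and 18.2 FPKM in oocytes, 0.09 and 0.12 in 2-cell controls, 64.0 and 31.3 in 4-cell controls and 0.13 and 0.17 in 4-cell Ago2 kd (-5.32, SE 0.54, adjusted p = 0.00257, called in 17 of 18 fits).

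Of these 16 corepressor genes, 3 fell and 1 rose between oocytes and 2-cell controls, 2 rose in the next step with none falling, and 2 were lower in 4-cell Ago2 kd. Over all tested genes these shares were 14.2% and 6.54%, then 21.1% and 17.5%, and 2.77%. With either scaling 1 of the 16 was lower at the second step, and with quantile normalisation none rose at the first and 1 was lower in 4-cell Ago2 kd. Besides Trim28 and Hdac2, Atrx fell at the first step, a chromatin remodeller at 353 and 132 FPKM in oocytes and 4.71 and 6.85 in 2-cell controls (-5.02, SE 0.64, adjusted p = 0.00232), and Cbx5, which encodes HP1 alpha, rose from 2.28 and 2.68 to 13.8 and 9.13 FPKM (1.81, SE 0.48, adjusted p = 0.0393). The Cbx5 call was lost without any one of 8 libraries, all but the 4-cell Ago2 kd ones (adjusted p up to 0.152). Setdb1 did not pass the threshold, at no more than 0.0124 FPKM in any library, so that its level gives no usable comparison. Atf7ip and Suv39h2 were lower in 4-cell controls than in oocytes (adjusted p = 0.0204 and 0.00825), calls lost for Atf7ip without either oocyte library (up to 0.101) and for Suv39h2 without 4-cell control replicate 1 (0.0518).

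Zfp277, which the study followed as a maternal target of endogenous siRNAs and which is known to act with Polycomb at the Cdkn2a locus, was at 5.12 and 3.89 FPKM in oocytes. It was listed at 0 in the 4 control and the 4 Ago2 kd embryo libraries. At this floor the values cannot show whether Ago2 kd and control differed. The study chose Zfp277 as a gene whose degradation was AGO2-dependent. At the first step it counted a transcript so when its level held or rose from oocytes to 2-cell Ago2 kd embryos. The values listed here fell to 0 in both 2-cell Ago2 kd libraries. The study's evidence for this gene included q-PCR after injection of endosiRNA mimics or inhibitors and decay curves under actinomycin D. It also included knockdown and rescue of a complementary long noncoding RNA. None of these experiments is addressed by the values here. The fall to the 2-cell stage was -2.45 on the log2(FPKM + 1) scale (SE 0.19, adjusted p = 0.000356); the gene reached 1 FPKM in oocytes alone.

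Related zinc-finger families, taken by name, were small. From 2-cell to 4-cell controls, 4 of 22 Zbtb genes rose and 3 fell (18.2% and 13.6%, beside 21.1% and 17.5% of all tested genes), and none passed the adjusted threshold in either knockdown comparison. The 8 Zfp genes with a letter suffix had 2 higher and 1 lower at that step, the 4 Zkscan genes 1 and 1, and the 3 Zscan genes none; no knockdown call was made in any of them.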

How the data were processed

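Gene-level FPKM values of 10 RNA-seq libraries were used as deposited by the authors. Per the study's methods and submitters' processing notes, reads (CASAVA 1.4) were trimmed with Trim Galore, aligned to GRCm38 (mm10) with HISAT2 2.1.0 and quantified as FPKM with StringTie; read counts and depth were not used here. All columns matched a labelled library. The study's own count-based test needs counts; on FPKM values, limma 3.58.1 (R 4.3.3) was used on log2(FPKM + 1), with 5 group means, a mean-variance trend and 8726 genes of at least 1 FPKM in at least 2 libraries. Called means a Benjamini-Hochberg adjusted p below 0.05 over all of them; SE is the moderated standard error. With 2 libraries a group, an exact permutation test of 1 gene cannot go below p = 0.333. The fit was tested on simulated data.

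Members and lists were chosen with earlier results of these data known. Named were the listed role groups, Zfp277, the 3 highest members of each group, up to 6 largest called differences in each direction and step, the largest unadjusted ones where fewer than 3 were called, interaction calls, members at the threshold, and Trim28, Setdb1 and called corepressors; Zfp408, Zfp626, Zfp746, Zfp956, Zfp398 and Zfp655 at the second step were added after their values were seen. KRAB was read from GENCODE M21 translations by 2 motifs, the second added after seeing sequences. Windows were 50 bases every 10. Same-numbered libraries did not deviate together (correlations from -0.093 to 0.092), so no pairing was used. Alternatives were pseudocount 0.1, no filter, median scaling, quantile normalisation, a replicate block, no trend, only the groups compared, and leaving out each library.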

Additional observations from a re-analysis of the deposited data

Results flagged for a closer look

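For 3 genes the Ago2 kd difference at the 4-cell stage differed from that at the 2-cell stage by an interaction test across all 8726 genes. The 4-cell less the 2-cell difference was -5.25 for Zfp513, -3.62 for Zfp777 and -2.17 for Zfp783, in log2(FPKM + 1). For Zfp513 the 2-cell values were 11.5 and 5.27 FPKM in controls and 14.3 and 14.4 in Ago2 kd, and the 4-cell values 24.9 and 17.8 against 0 and 0. Zfp777 and Zfp783 reached 1 FPKM in the 4-cell controls alone and were at most 0.04 FPKM at the 2-cell stage, so the direction of their interaction was fixed by the selection; without members of this kind 1 call remained. No cause was tested.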

How the results depend on the processing

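For 70 pairs of gene and comparison, recomputed under 17 alternatives, no direction reversed; 993 values kept their side of the threshold, 191 lost significance and 6 gained it. In the 4-cell knockdown, the calls counted without the members that reached 1 FPKM in 1 group alone still include Zfp7. Outside the 4-cell controls, Zfp7 reached 1 FPKM in oocyte replicate 1 only. The calls at the 4-cell knockdown were the least stable. From 7 they became 3 with no filter, 4 with the replicate block, 4 without the trend, 0 with only the groups compared, 4 without the members that reached 1 FPKM in 1 group alone, and 4 to 10 on leaving out 1 library; its 27 genes at an unadjusted p became 16 with only the groups compared and 22 to 31 on leaving out 1 library. For the 2-cell knockdown the 0 calls became 0 to 1, and the 6 genes at an unadjusted p 4 to 13, on leaving out 1 library. The 3 interaction calls became 5 with pseudocount 0.1, 1 without the one-group members and 1 to 6 on leaving out 1 library. From oocyte to 2-cell, 25 calls became 16 without the one-group members and 18 to 27 on leaving out 1 library; from 2-cell to 4-cell, 44 became 27 with no filter and 32 to 49; from oocyte to 4-cell, 65 became 47 to 70 over all alternatives. The replicate block, by library numbers that did not pair the samples, changed no other count by over 1.5 times. The cause of these changes was not tested. Clusters I, II and III held 17 to 24, 15 to 17 and 12 to 14 members. Thresholds of 0.5 and 2 FPKM left the summed levels within the spread between libraries and moved the median level of oocytes from 1.87 to 1.29 and 3.89 FPKM. Depth, unknown here, limits all values near 0.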
